A study of Mus musculus with 28 samples.

Results

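Mitral and tufted cells are the projection neurons of the olfactory bulb, and 5 genes that mark them, Tbx21, Eomes, Doc2g, Cdhr1 and Shisa3, were followed through whole brains of 3-week mice cut along 3 planes. The genes were chosen as known markers of these neurons, and each was read from the array probe of its symbol with the highest mean level, which makes 5 of the 20660 gene symbols named on the array. The data were 28 one-colour arrays, 12 of coronal, 6 of horizontal and 10 of sagittal fractions of brains from 3 untreated male C57BL/6J mice. Each plane came from 1 mouse, and each fraction of consecutive sections was measured on 1 array, so no position has a replicate and plane and mouse cannot be told apart. Levels are log2 of the processed signal over the 75th percentile of the same array, so 0 marks that percentile, and levels of different genes come from different probes and are not compared with each other. The arrays had between 24822 and 34240 probes well above background, and the 75th percentile of signal ran from 135 to 574, lowest in sagittal fraction 1.

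The olfactory bulb is the foremost part of the rodent brain. Axons of olfactory sensory neurons end in its glomeruli, where they contact the dendrites of mitral and tufted cells, and these glutamatergic neurons carry the signal to the olfactory cortex. Granule and periglomerular interneurons, which are renewed from migrating neuroblasts, shape that output. Tbx21 and Eomes encode T-box transcription factors, which bind DNA through a shared domain. Eomes acts in the differentiation of mitral and tufted cells and is also made by unipolar brush cells of the cerebellum and by intermediate progenitors of the hippocampus, and both factors are well known from T cells and natural killer cells. Doc2g is a relative of the C2-domain proteins Doc2a and Doc2b, which take part in vesicle release. Cdhr1 is a cadherin-related membrane protein of photoreceptors and of bulb output neurons, and Shisa3 belongs to a family of single-pass membrane proteins.

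In the RefSeq annotation of build GRCm38.p6, Tbx21 lies at chr11:97098007-97115331, Eomes at chr9:118478186-118486132, Doc2g at chr19:4003385-4007005, Cdhr1 at chr14:37077849-37098347 and Shisa3 at chr5:67607883-67613987. RefSeq upstream sequences were found for 5 of the 5 genes. The 250 bases upstream of the start in the RefSeq promoter table, which for Eomes lies 3 bases inside the gene's stated extent, are shown 5′ to 3′ on the gene's strand for the 2 T-box factors and for Doc2g, the gene of the 5 that holds the T-box core letters GTGTGA, which are in capitals, as is their reverse complement TCACAC.
Tbx21, chr11:97115332-97115581, minus strand: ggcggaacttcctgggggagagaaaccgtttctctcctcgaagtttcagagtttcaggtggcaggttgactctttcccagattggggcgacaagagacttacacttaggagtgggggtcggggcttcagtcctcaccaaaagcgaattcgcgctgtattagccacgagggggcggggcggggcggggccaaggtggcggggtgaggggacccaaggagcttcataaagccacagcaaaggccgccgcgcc
Eomes, chr9:118477939-118478188, plus strand: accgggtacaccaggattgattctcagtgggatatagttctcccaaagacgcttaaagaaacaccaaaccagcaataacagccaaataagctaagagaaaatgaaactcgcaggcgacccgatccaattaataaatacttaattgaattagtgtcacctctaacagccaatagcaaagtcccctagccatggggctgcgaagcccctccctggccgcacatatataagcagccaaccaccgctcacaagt
Doc2g, chr19:4003135-4003384, plus strand: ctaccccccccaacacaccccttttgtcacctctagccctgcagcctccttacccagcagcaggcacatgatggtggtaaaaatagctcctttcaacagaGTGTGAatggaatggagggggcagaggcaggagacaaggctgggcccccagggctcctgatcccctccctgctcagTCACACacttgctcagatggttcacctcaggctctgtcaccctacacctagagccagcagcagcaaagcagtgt
Counted from the start of the gene, the Doc2g core matches begin at -150 on the sense strand and at -74 on the antisense strand. Among 32851 upstream windows of the same length, 12.3% held GTGTGA on either strand. The longer T-box half-site AGGTGTGA, which contains the core, was in none of the 5 windows and in 1.12% of all of them. The palindromic Olf/Ebf site, searched by its consensus, was in none of the 5 (0.779% of all windows), and TATAAA on the sense strand was in none of the 5 (7.59% of all windows). The 5 windows also differed in composition, from 0 CG pairs in Doc2g to 25 in Shisa3 and from 46.4% G and C in Eomes to 69.6% in Shisa3, against medians of 6 and 52.4% over all windows. These letters are a description of the windows and say nothing of binding.

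The labels do not say which end of a series comes first. Of 8 cerebellar genes, 7 were highest in coronal fraction 2 or 3 and Barhl1 in fraction 10, with the Purkinje cell gene Pcp2 at 8.92 in fraction 2, and the sensory neuron genes Omp and S100a5, whose products reach the bulb in sensory axons, were highest in fractions 12 and 11, at 7.04 and 7.61. Of the 12 sensory neuron genes listed, 4 were highest in fraction 11 or 12, Omp, S100a5, Stoml3 and Cnga2, and the other 8 in fractions 2 to 10. Coronal fractions 11 and 12 are called the rostral end here from Omp and S100a5, and their levels there are a description. The label of fraction 12 names a further fraction pooled with it.

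Along the coronal series all 5 genes were highest at the rostral end and rose steeply over the last 3 fractions. Doc2g stood at -0.54 in fraction 9, 3.39 in fraction 10, 6.73 in fraction 11 and 6.23 in fraction 12, and Cdhr1 at -0.51, 1.63, 4.47 and 5.56. Doc2g was the gene of the 5 whose highest fraction was 11 and not 12. Tbx21 was not well above background in 8 of the 12 fractions, among them fraction 9, and reached -0.89, 1.87 and 3.06 in fractions 10 to 12. Shisa3 passed the background limit in 5 of 12 fractions and reached -2.98, -0.07 and 1.19 there. Eomes rose from -4.12 in fraction 9, where it was not well above background, to -0.50, 2.43 and 3.86. From fraction 10 to fraction 11 the 5 genes rose by 2.76 to 3.34, and from 11 to 12 Tbx21, Eomes, Cdhr1 and Shisa3 rose by a further 1.09 to 1.43 while Doc2g fell by 0.50. Tbx21, Eomes, Cdhr1 and Shisa3 thus ordered the last 3 fractions alike. In tissue fractions, fewer cells of a type and less RNA per cell cannot be told apart.

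**Figure D1:**
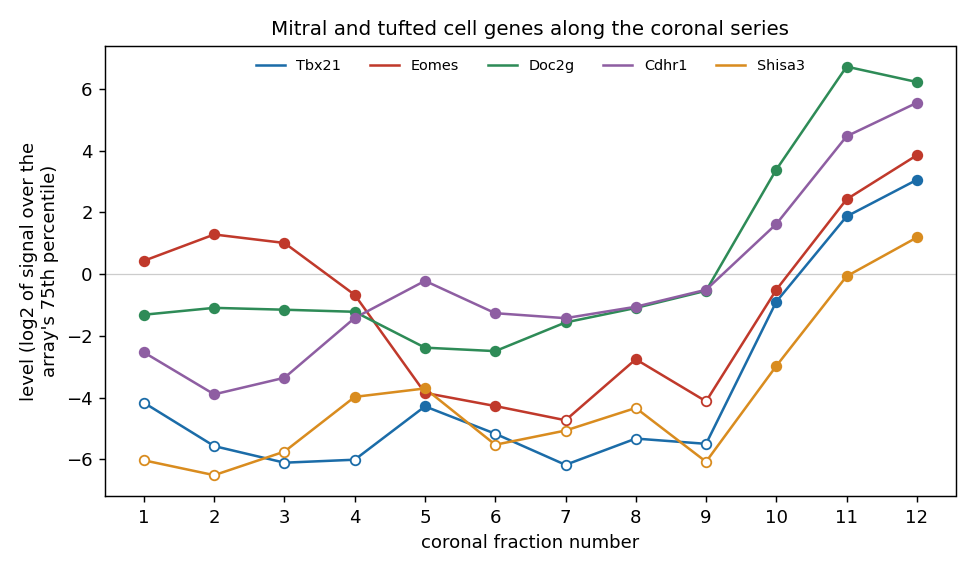
Levels of the 5 genes (vertical axis, log2 over the array's 75th percentile) by coronal fraction number (horizontal axis), 1 array per point. Open circles were not well above background. The 5 lines rise from fraction 9 to fraction 11, and Eomes also stands between -0.67 and 1.29 in fractions 1 to 4.

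A trend with position was tested by limma as a smooth curve of the fraction number, the residual around the curve being the error. In the coronal series 5 of 5 genes had a trend, beside 33.7% of the 32364 probes tested. The fitted range was 9.66 for Tbx21 (adjusted p 0.000517), 9.63 for Doc2g (adjusted p 0.000351), 9.60 for Cdhr1 (adjusted p 0.000363), 8.81 for Eomes (adjusted p 0.00149) and 8.29 for Shisa3 (adjusted p 0.00109), all by limma, against a median of 0.90 over all tested probes. The fits of Tbx21, Eomes and Shisa3 run down into values near background, and with those raised to the detection limit their measured ranges were at least 7.82, 8.18 and 5.95, so the 5 genes are not ordered by range. With normexp background correction, which compresses dim values, their fitted ranges were 6.01, 6.80 and 3.88. These bounds thus hold for the processed signal alone. Leaving out any 1 coronal fraction kept all 5 calls. With the slide as an added term the fitted ranges were 5.76 to 8.93 and 0 of 5 passed, with limma adjusted p of 0.187 to 0.590. Over all tested probes 241 of 32364 passed with that term. Coronal fractions 11 and 12 are the only coronal fractions on their slide, so slide and rostral position cannot be told apart within this series.

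The bulb end was then set against the rest as the mean of coronal fractions 11 and 12 minus the mean of fractions 1 to 10. For all 5 genes both rostral fractions lay above each of the other 10, which held for 7.83% of tested probes. The exact permutation test gave p 0.0303 (two-sided) for each gene, the smallest that the 66 splits allow. Genes and fractions were chosen with earlier results of these data known, so this p restates that order and adds no separate support. By limma 4 of 5 genes were higher at the threshold, beside 7.17% of probes called in either direction and 3.82% called higher. Doc2g, well above background throughout, had 6.73 and 6.23 at the rostral end against a mean of -0.95 ± 1.64 (SD over 10 fractions), a difference of 7.43 (SE 1.09, limma adjusted p 0.00242) or 172-fold. Cdhr1 had a rostral mean of 5.01 against -1.41 ± 1.59, a difference of 6.42 (SE 1.07, limma adjusted p 0.00441) or 85.6-fold. These 2 genes gave full measurements on both sides of the contrast. With normexp background correction the difference was 6.89 for Doc2g and 5.63 for Cdhr1, so their folds too belong to the processed signal.

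Tbx21 differed by 7.39 (SE 1.07, limma adjusted p 0.00226) but was well above background in 2 of the 10 other fractions, so its fold is a bound, at least 89.7-fold higher. Shisa3 differed by 5.56 (SE 0.82, limma adjusted p 0.00242) with 3 of 10 other fractions above background, at least 25.2-fold higher. For each bound, a fraction with the probe near background was raised to the array's detection limit, which is the dimmest signal that still counted as well above background. Eomes differed by 4.96 (SE 1.59) with a limma adjusted p of 0.0822, which misses the threshold, and was at least 30.1-fold higher. With normexp background correction, which compresses dim values, Eomes passed too (difference 4.06, adjusted p 0.0287), and Tbx21 and Shisa3 had smaller differences of 4.70 and 3.02, so the 3 bounds hold for the processed signal alone. On that scale the other 10 fractions of Eomes varied most, with an SD of 2.37 against 1.19 to 1.64 for the other 4 genes. The median difference over all tested probes was -0.03.

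Without fraction 11 the same 4 genes passed (852 of all probes), with limma adjusted p of 0.0153 to 0.0333. Without fraction 12, Doc2g alone passed (314 of all probes), and Tbx21, Shisa3 and Cdhr1 had differences of 6.80, 4.93 and 5.88 with limma adjusted p of 0.0600, 0.0663 and 0.0961. With fraction 12 alone set against the other 11, which then hold fraction 11, the differences were 5.29 to 7.37 and 0 of 5 passed (16 of all probes). Fraction 11, high itself, counts among the others there, and the cause of this count was not tested. With fractions 10 to 12 set against 1 to 9, the same 4 genes passed (4168 of all probes) and Eomes had an adjusted p of 0.103. Against sagittal fractions 5 to 10, which shared the slide of coronal fractions 11 and 12 but came from another mouse and plane and carry these genes too, the differences were 3.09 to 4.66, and Doc2g (limma adjusted p 0.0347) and Shisa3 (0.0459) passed, beside 274 of all probes. Shisa3 was not well above background in sagittal fractions 8 to 10, so its difference of 4.05 there is not a full measurement.

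**Figure D2:**
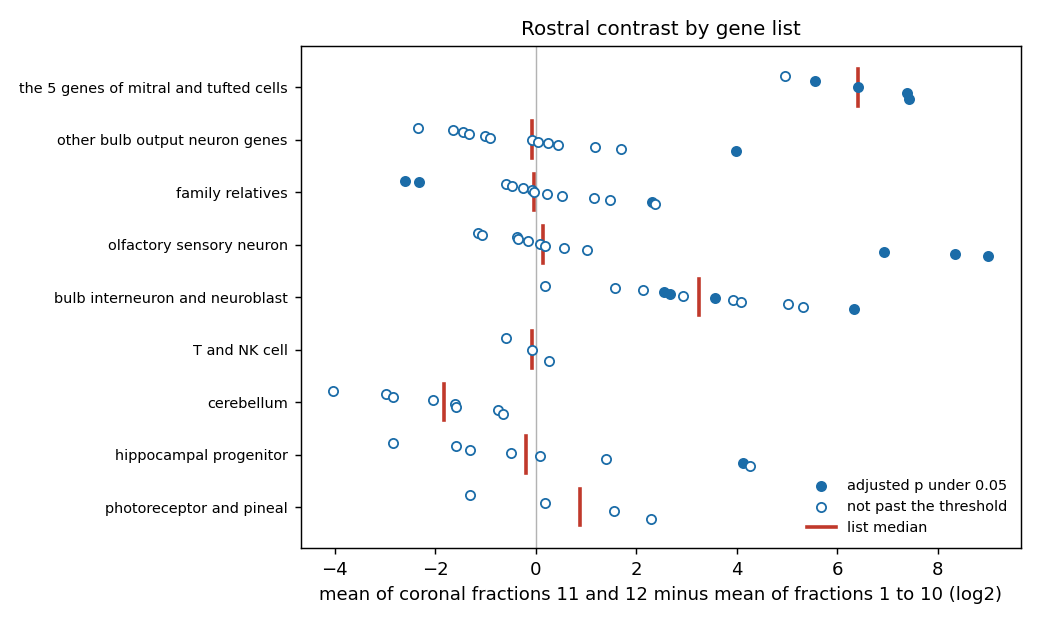
Difference between the mean of coronal fractions 11 and 12 and the mean of fractions 1 to 10 (horizontal axis, log2) for each tested gene of 9 lists (rows). Filled points passed the limma threshold, and red bars are list medians. The 5 genes lie between 4.96 and 7.43. Of the other lists the sensory neuron genes reach 8.99, for S100a5, which with Omp had served to name the rostral end.

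Behind the rostral end the 5 genes parted. Over coronal fractions 1 to 10 limma called 3 of 5, Eomes, Doc2g and Cdhr1, beside 25.0% of probes. Eomes had a fitted range of 5.93 with its highest fitted value in fraction 1 (adjusted p 0.0130), and was measured at 0.43, 1.29, 1.01 and -0.67 in fractions 1 to 4. In fractions 5 to 9 it lay between -4.74 and -2.76, and in 2 of those 5 fractions it was not well above background. The second Eomes probe, well above background in 15 of 28 fractions, gave the same shape, with -2.91, -1.99, -1.68 and -3.65 in fractions 1 to 4, none well above background in fractions 5 to 10, and 0.52 in fraction 12. Its correlation with the first probe was 0.952 over the 28 arrays.

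Doc2g and Cdhr1 had their highest fitted value of these 10 fractions in fraction 10, with fitted ranges of 5.19 (adjusted p 0.00652) and 4.59 (adjusted p 0.0495, limma). Doc2g lay between -2.50 and -0.54 over fractions 1 to 9. Cdhr1 was lowest in fractions 1 to 3, at -2.54, -3.90 and -3.36, and lay between -1.43 and -0.22 in fractions 4 to 9. Tbx21 and Shisa3 were above background in 1 and 2 of the first 9 fractions, Tbx21 in fraction 5 at -4.29 and Shisa3 in fractions 4 and 5 at -3.98 and -3.71, and had adjusted p of 0.152 and 0.253. The Eomes call was lost without fraction 2 (fitted range 5.70, adjusted p 0.0573) and with a slide term (fitted range 6.50, adjusted p 0.127). The Cdhr1 call was lost without fraction 2, 4, 6, 7, 8, 9 or 10 (adjusted p 0.0677 to 0.154, with a fitted range of 2.55 without fraction 10) with a slide term (0.281), with the array median (0.0612) and with quantile normalization (0.0523). With normexp background correction Tbx21 passed too (adjusted p 0.0258). The Doc2g call held in all these settings, with a largest adjusted p of 0.0476, reached without fraction 10, where its fitted range was 1.89 in place of 5.19.

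As shares of the summed coronal signal, fractions 11 and 12 held 93.9% for Tbx21, 92.8% for Doc2g, 91.3% for Cdhr1, 88.3% for Shisa3 and 72.6% for Eomes. Fractions 1 to 4 held 23.5% of the Eomes signal and 0.833% to 2.95% of that of the other 4 genes. Dim values count in these sums as measured.

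**Figure D3:**
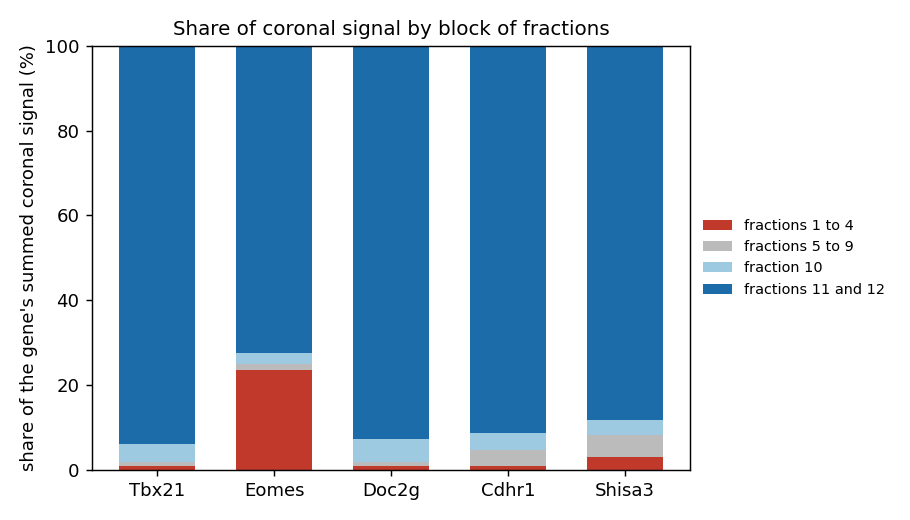
Share of each gene's summed coronal signal (vertical axis, percent, scaled signal on the linear scale) in 4 blocks of fractions. Fractions 11 and 12 hold 72.6% of the Eomes signal and 88.3% to 93.9% of that of the other genes, and fractions 1 to 4 hold 23.5% for Eomes.

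In the horizontal series all 5 genes were highest in fraction 3. Tbx21 ran from -4.58 in fraction 1, not well above background, over a median of -2.34 to -0.78. Eomes ran from -2.43 over -0.47 to 0.85, Doc2g from -0.79 over 1.19 to 2.36, and Cdhr1 from -0.75 over 0.42 to 1.61. Shisa3 was well above background in fractions 2, 3 and 4, at -2.93, -2.88 and -3.24, and in none of fractions 1, 5 and 6. Fraction 4 was the second highest for Tbx21, Eomes, Doc2g and Cdhr1, so these genes shared a maximum in the middle of this axis. By limma 1 of 5 genes had a trend, Cdhr1 (fitted range 2.32, adjusted p 0.0195), beside 15.8% of probes. The fitted ranges of Tbx21 and Eomes were 3.12 and 2.87, with adjusted p of 0.0728 and 0.0624, and those of Doc2g and Shisa3 were 2.28 and 2.09, with 0.200 and 0.265. Without fraction 1, where Tbx21 was not well above background, the ranges of Tbx21, Eomes and Doc2g were 1.89, 1.76 and 1.18 and that of Cdhr1 was 2.26. With 6 arrays these calls moved with the setting, from 0 to 5 of 5 as 1 fraction was left out: Cdhr1 was lost without fraction 1, 3 or 4 (adjusted p 0.0600 to 0.0706), all 5 passed without fraction 5 (0.0232 to 0.0487; 5754 of all probes against 5115), and all but Shisa3 passed without fraction 6 (1336 of all probes). Over all probes the count was 2213 without fraction 1 and 0 without fraction 3 or 4. With 1 spline degree of freedom fewer, the Cdhr1 range was 0.23 (limma adjusted p 0.966), and 1 of all probes passed. Scaled by the array median, 5 of 5 passed, beside 19347 of the 32364 probes.

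In the sagittal series fractions 5 and 6 are the middle by number. The levels were highest in fractions 5 to 7, or 6 to 8 for Doc2g. Tbx21 stood at -0.44, -0.48 and -0.20 in fractions 5, 6 and 7 and between -4.34 and -2.18 in the other 7. Eomes stood at 0.75, 0.90 and 0.55 there and fell to -3.48 in fraction 1. Doc2g had 2.12, 2.70 and 2.67 in those fractions and 2.21 in fraction 8, and Cdhr1 had 2.06, 2.46 and 1.86. Shisa3 had -2.92, -2.38 and -2.68, and was not well above background in fractions 8 to 10. The 4 genes other than Tbx21 peaked in fraction 6, and Tbx21 in fraction 7. The trend test called 1 of 5, Eomes (fitted range 3.88, limma adjusted p 0.00970), beside 14.7% of probes. For Tbx21, Doc2g, Cdhr1 and Shisa3 the fitted ranges were 3.45, 2.81, 3.25 and 1.88, with adjusted p of 0.0971, 0.121, 0.123 and 0.418. The Eomes call was lost without fraction 1 (fitted range 2.11, adjusted p 0.124; 0 of all probes), the array with the lowest signal, and held with a slide term (0.0348). Without fraction 8, 9 or 10 the count was 2, 4 and 5 of 5, beside 3944, 12543 and 15244 of all probes, against 4767 with every fraction in.

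**Figure D4:**
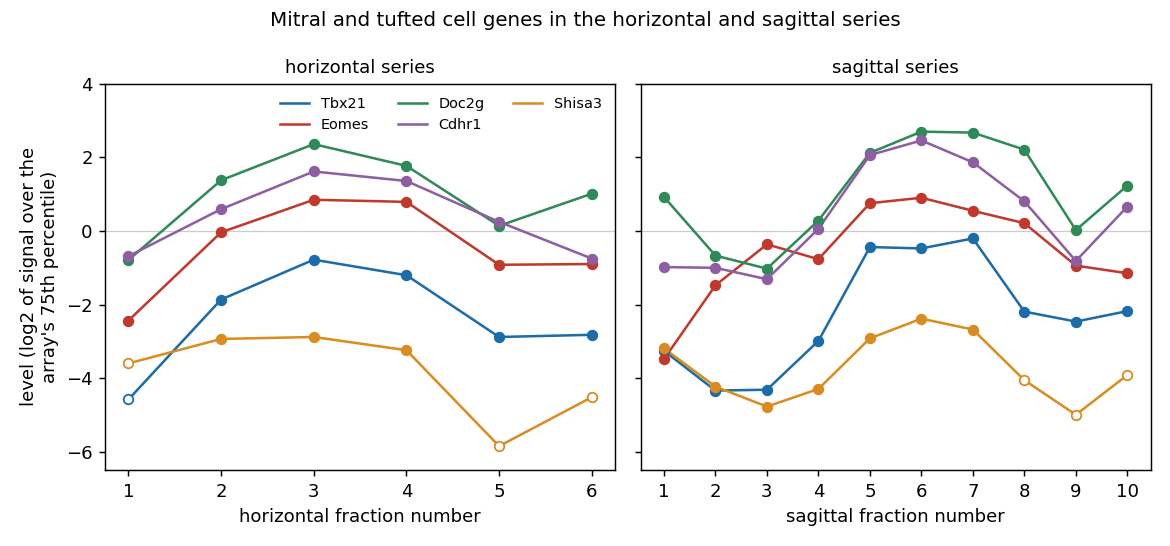
Levels of the 5 genes (log2 over the array's 75th percentile) by fraction number in the horizontal (left) and sagittal (right) series, 1 array per point, with open circles for values not well above background. The horizontal maxima lie in fraction 3, and the sagittal maxima in fraction 6, or 7 for Tbx21.

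Fractions 5 and 6 of the sagittal series were set against the other 8. The differences were 2.35 for Cdhr1 (SE 0.74), 2.28 for Tbx21 (SE 0.87), 1.76 for Eomes (SE 0.81), 1.70 for Doc2g (SE 0.86) and 1.36 for Shisa3 (SE 0.53). Shisa3 was well above background in 5 of the 8 other fractions, so its difference is a bound, at least 1.00 with dim values raised to the detection limit. By limma 0 of 5 passed, with an adjusted p of 0.687 for each, and 0 of 32364 probes passed (0%), with 1844 at an unadjusted p under 0.05. The exact permutation test gave p 0.0444 for Eomes and Cdhr1, the smallest that 45 splits allow, and 0.133, 0.178 and 0.0889 for Tbx21, Doc2g and Shisa3 (two-sided, 2 against 8 fractions). The middle fractions too were chosen with earlier results of these data known, so these p only describe the order of fractions. Eomes and Cdhr1 were the 2 genes whose middle fractions lay above all others, which held for 5.62% of probes. Against fractions 7 to 10 alone, which shared their slide, the differences were 0.88 to 1.63 and 0 of 5 passed.

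Sagittal fractions were also paired by number, 1 with 10 to 5 with 6, though the labels do not place the midline. Each of the 5 pairs was higher in fractions 6 to 10 than in its mirror fraction for Eomes, Doc2g and Cdhr1, and 4 of 5 pairs for Tbx21. Shisa3 was near background in fractions 8 to 10, so its pairs are not counted. The median difference was 1.87 for Tbx21, 1.64 for Cdhr1, 0.69 for Doc2g and 0.57 for Eomes. Doc2g differed most between fractions 3 and 8, at -1.03 and 2.21. The middle pair differed by -0.04 to 0.58. Fractions 1 to 4 lay on a slide of their own, so position and slide cannot be told apart for 4 of the 5 pairs.

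Likeness was measured as Pearson's r over the 28 fractions, a description across positions of 3 brains that share arrays and scaling. Among the 5 genes the 6 pairs without Eomes had r of 0.843 to 0.937, highest for Tbx21 with Doc2g, and the 4 pairs with Eomes 0.485 to 0.693, lowest with Cdhr1. Without coronal fractions 11 and 12 the pairs without Eomes had 0.693 to 0.904 and those with Eomes 0.207 to 0.544. The planes were not alike in this. Within the coronal series the pairs with Eomes had 0.399 to 0.697 and the others 0.877 to 0.949. In the 6 horizontal fractions Eomes had 0.996 with Tbx21, 0.960 with Doc2g and 0.901 with Cdhr1, and the 4 pairs with Shisa3, near background in 3 of the 6, were the lowest at 0.436 to 0.516. In the sagittal series the pairs with Eomes had 0.313 to 0.750 and the others 0.757 to 0.938. Over the fractions in which both genes of a pair were well above background, the r with Eomes was 0.868 for Tbx21 (19 fractions), 0.691 for Doc2g (26), 0.483 for Cdhr1 (26) and 0.732 for Shisa3 (15). For Tbx21 this leaves out coronal fractions 1 to 4.

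**Figure D5:**
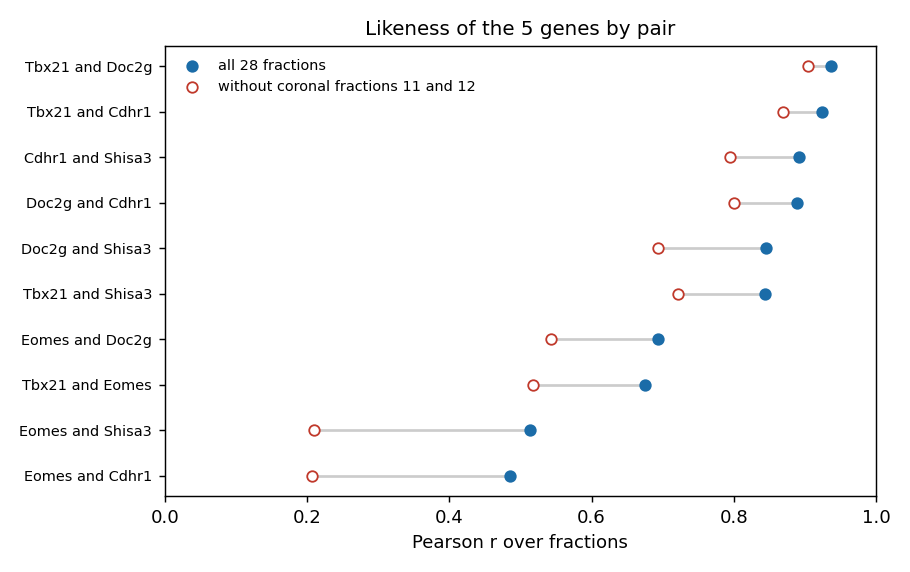
Pearson r over fractions (horizontal axis) for the 10 pairs of the 5 genes, over all 28 fractions (filled) and without coronal fractions 11 and 12 (open). The 4 pairs that hold Eomes are the lowest, from 0.485 to 0.693 over all fractions.

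Over all tested probes, the 3 named genes most like Tbx21 were Ms4a15 (r 0.961), S100a5 (0.947) and Omp (0.937). Those most like Doc2g were S100a5 (0.960), Nmb (0.956) and Omp (0.948). Omp, olfactory marker protein, and the calcium-binding protein S100a5 are made by olfactory sensory neurons, and Nmb encodes the peptide neuromedin B. Cdhr1 was most like Sp8 (0.940), a transcription factor of bulb interneurons, Dcx (0.936), a microtubule protein of migrating neuroblasts, and Nppa (0.929). Shisa3 was most like Gm525 (0.927), Myoz1 (0.921) and Artn (0.906), of which Myoz1 was well above background in 9 of 28 fractions. Eomes had other partners, Ltbp2 (0.932), Gcnt1 (0.891) and the transcription factor Pax6 (0.863). Probes with r over 0.85 numbered 22 for Tbx21, 13 for Eomes, 36 for Doc2g, 44 for Cdhr1 and 27 for Shisa3. Without coronal fractions 11 and 12 they numbered 12, 28, 10, 11 and 0, so the count fell for 4 genes and rose for Eomes.

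Of 13 other genes known from bulb output neurons that were tested, 1 was called in the rostral contrast, near the 7.17% of all probes. It was Lbhd2, with 5.45 and 5.54 in fractions 11 and 12 against a highest value of 3.10 elsewhere (difference 3.99, limma adjusted p 0.00776), and the list's median difference was -0.08. Without fraction 11 and without fraction 12, 0 of the 13 were called. Tbr1, the T-box factor closest to Tbx21 and Eomes, peaked at 4.59 in coronal fraction 9 and had 2.33 and 1.88 in the rostral fractions (difference -0.08, adjusted p 0.986). Reelin, secreted by mitral cells, was highest in fraction 12 at -0.91 with a difference of 1.69 (adjusted p 0.193). The vesicular glutamate transporters Slc17a7 and Slc17a6 had differences of 0.05 and -1.65 (adjusted p 0.965 and 0.206), and the peptide gene Cck, common to tufted cells and cortical cells, 0.45 (adjusted p 0.781). In the coronal trend 11 of these 13 genes passed, beside 33.7% of all tested probes.

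Among family relatives 3 of 13 tested were called in the rostral contrast, 1 higher and 2 lower, with a median of -0.03, beside 7.17% of all probes called and 3.82% called higher. Without fraction 12 the count was 1, and against the sagittal fractions of the same slide it was 0. Shisa2 was higher by 2.32 (adjusted p 0.000934), with 0.66 in fraction 12 against at most -2.06 in fractions 1 to 10. The calcium sensor Doc2b and the Rab3 effector Rph3a were lower by limma, with differences of -2.32 and -2.60 (adjusted p 0.00441 for each), and Doc2a had -0.59 (adjusted p 0.550). Doc2g thus differed in sign from Doc2b in the same contrast. The other Shisa genes had differences of -0.48 to 2.38 and did not pass.

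Of 12 sensory neuron genes 3 were called in the rostral contrast, all higher, beside 3.82% of all probes. They were Stoml3 (limma adjusted p 0.000478), well above background in 11 of all 28 fractions, with 1.34 and 1.53 in fractions 11 and 12 against at most -3.53 in the others, and Omp and S100a5, with differences of 8.33 and 8.99, which had served to name that end. The other 9 had differences of -1.15 to 1.02 and did not pass, and the list's median was 0.14. Of 12 interneuron and neuroblast genes 4 were called higher, beside the same 3.82%, and 2 without fraction 11 and 1 without fraction 12. These 4 were Th, Sp8, Meis2 and Tshz1, higher by 3.56, 6.33, 2.54 and 2.67 (limma adjusted p 0.00242, 0.0271, 0.0276 and 0.000140), with a list median of 3.24. The summed signal of the interneuron list was 181 to 262 times the array's 75th percentile in fractions 11 and 12 and 35.3 to 116 in the others. The part of these cells in the profiles was not tested.

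The other cell types that use these genes were read from their own markers. For the T-box factors, 9 T and natural killer cell genes were listed. Of these, 6 were not well above background in either rostral fraction, Cd3d, Cd3g, Cd8a, Ncr1, Gzmb and Ifng. Of the 3 tested, Cd3e, Nkg7 and Gzma, 0 were called, beside 7.17% of all probes. Cd3e and Nkg7 were well above background in all 28 fractions, at 1.53 and 0.99 in fraction 11. The summed signal was 3.52 to 5.13 in the rostral fractions against 4.04 to 7.99 elsewhere, and these 2 bright probes weigh most in it. For Cdhr1, 4 of 7 photoreceptor and pineal genes were not well above background in the rostral fractions. The other 3 were well above background in both. Of 4 tested, 0 were called, or 1 without fraction 5 and 1 against the sagittal fractions of the same slide. The differences of the 4 ran from -1.31 for Rcvrn to 2.30 for Tph1, with a median of 0.87. Beside the Eomes levels in coronal fractions 1 to 4, 6 of 8 cerebellar genes had a coronal trend (33.7% of all tested probes had one), and Pcp2, Gabra6, Neurod1, Car8, Cbln3 and Lmx1a, the last a transcription factor of unipolar brush cells, each peaked in fraction 2 or 3. The summed cerebellar signal ranged from 6.24 to 549 over fractions 1 to 10 and from 6.27 to 9.22 in fractions 11 and 12. Of the 8 hippocampal progenitor genes, 8 had a coronal trend, beside the same 33.7%, peaking in fraction 2, 5, 9, 11 or 12. Neurod1 stands in both this list and the cerebellar list. In the rostral contrast 1 of the 8 was called, beside 3.82% of all probes called higher. It was Dcx (4.12, limma adjusted p 0.00142), named above for migrating neuroblasts and so not particular to the hippocampus. The list's differences ran from -2.84 to 4.26, with a median of -0.20. Against the sagittal fractions of the same slide 0 of the 8 were called. The part of cerebellar and hippocampal tissue in the Eomes profile was not tested.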

How the data were processed

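Per the labels, a fraction held 100 sections of 5 micron, 500 micron in all, while the study gives another thickness, so positions are fraction numbers. The authors labelled RNA of each fraction and hybridised it to 1-colour Agilent arrays. The deposited intensity values are background-subtracted processed signals from Feature Extraction 10.5.1.1 (per the file headers). A further deposited table of log2 values, for 44721 probes, matched log2 of the signal minus the array's 75th percentile within an offset of 0.00111 to 0.00758 per array and were used only for this comparison. Background subtraction makes values near background imprecise, and scaling to a percentile hides differences in total RNA between fractions.

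Outlier-flagged spots (108 to 176 per array) were left out, spots of a probe averaged, log2 taken and the array's 75th percentile subtracted. The well-above-background flag was taken for a probe when 0.5 or more of its spots had it. Of 55681 probes, 32426 were so in at least 1 fraction of each series, and without 62 that had no usable spot on some array 32364 were tested. RefSeq symbols named 27235 probes (48.9%).

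limma 3.58.1 in R 4.3.3 tested trends (natural cubic spline of the fraction number, 3 degrees of freedom, 2 in the horizontal series) and contrasts, with Benjamini-Hochberg adjustment over all tested probes and a threshold of 0.05. The scripts were tested on simulated data. Exact permutation tests used scipy 1.17.1. P-values take fractions of 1 brain as units, and say nothing of the spread between mice. The text names the 5 genes, genes of fixed lists, and per gene the 3 other named symbols with the highest r. 1 marker gene of the lists is not reported here. The 5 genes, the lists and the 2 contrasts were chosen with earlier results of these data known. Alternatives were the array median, quantile normalization, normexp (offset 50), no filter, outlier spots kept, the mean over probes, other fraction sets, a slide term, 1 spline degree of freedom fewer and each fraction left out.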

Additional observations from a re-analysis of the deposited data

How the results depend on the processing

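With 1 array per position, only the residual around a curve or within a set of fractions serves as error, and probes near background have no measured order. Of 545 single-gene results under alternatives, 488 kept their side of the threshold, 31 lost a call and 26 gained one. Fitted ranges of trends carry no sign, so direction applies to the contrasts alone, of which 0 changed sign. The coronal trend count, 5 of 5, was 0 with a slide term and 5 without each fraction. The horizontal count, 1, was 5 with the array median, 3 with quantile normalization, 2 with normexp, 0 with 1 spline degree of freedom fewer, and 0 to 5 without each fraction. The sagittal count, 1, was 3 with normexp and 0 to 5 without each fraction. The rostral count, 4, was 5 with normexp, 0 with fraction 12 alone, where the comparison holds the high fraction 11, 2 against sagittal fractions on the same slide, and 1 to 4 without each fraction. The count for the middle sagittal fractions was 0 in every alternative run. The count behind the rostral end, 3, was 1 with a slide term and 1 to 3 without each fraction. The cause of these changes was not tested.

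Over all probes the coronal trend count of 10910 became 241 with a slide term and 17330 with no filter. The horizontal count of 5115 became 19347 (array median), 8987 (normexp) and 1 (fewer degrees of freedom), and 0 to 5754 without each fraction. The sagittal count of 4767 became 337 (array median), 2631 (quantile), 14270 (normexp), 19184 (no filter) and 2520 (slide term), and 0 to 15244 without each fraction. The rostral count of 2322, 53.3% higher, was 2440 with the array median, 74.7% higher, where the median of all probes moves from -0.03 to 0.11; normexp gave 1979, 65.9% higher. It became 16, 4168 and 274 with the other fraction sets, and 314 to 4017 without each fraction. The count for the middle sagittal fractions of 0 became 48 with fractions 4 to 7, 2 with the array median and 0 to 4 without each fraction. The count of 8104 behind the rostral end became 13406 (normexp), 18294 (no filter) and 609 (slide term), and 3906 to 8917 without each fraction.

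Probes with r over 0.85 became 12, 28, 10, 11 and 0 (Tbx21, Eomes, Doc2g, Cdhr1, Shisa3) without coronal fractions 11 and 12, 23 for Doc2g with quantile normalization and 43 for Shisa3 with the array median. In the rostral contrast the interneuron list had 1 to 5 genes called without each fraction and 0 to 9 in other settings, the sensory neuron list 3 to 4 and 0 to 3, the family relatives 1 to 3 and 0 to 3, the other output neuron genes 0 to 1 and 0 to 3, the hippocampal list 1 to 3 and 0 to 3, the photoreceptor list 0 to 1 and 0 to 1, and the cerebellar list 0 and 0 to 2. No paired analysis was possible because the fraction numbers of different planes mark different positions.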
